A study of Danio rerio with 11 samples.

Results

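The comparison described here set RNA recovered with tagged eIF4E1b against the RNA of the lysate it came from, in zebrafish embryos at the 8-cell stage. Its members were chosen by label: the 3 libraries of RNA immunoprecipitation (RIP) and the 3 input libraries of eIF4E1b, paired by replicate number, 6 of the 11 libraries in the series. The embryos were of the genotype tg(actb2:3xflag-sfGFP-eIF4E1b), a transgene in which the broadly active actb2 promoter drives eIF4E1b with 3 FLAG copies and superfolder GFP at its N-terminus. The labels name no mutation of the endogenous gene, so tagged and untagged eIF4E1b can be present together. The tagged protein was captured on beads carrying an anti-GFP binder, and part of each lysate was kept as input. The other 5 libraries were 2 RIP and 3 input libraries of the genotype tg(actb2:3xflag-sfGFP-eIF4E1c), also at the 8-cell stage, and serve below as a reference with another bait. The kit differed between the kinds of library: SMARTer Ultra Low for the RIP, and SMARTer Stranded with Ribo-Zero removal of ribosomal RNA for the inputs. The kits differ in priming as well as in removal of ribosomal RNA. Capture by the bait and the kit cannot be told apart within eIF4E1b, and this includes RNAs without a poly(A) tail. A mock RIP without a tagged protein was not analysed here.

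eIF4E proteins bind the methylguanosine cap at the start of an mRNA. The canonical eIF4E then binds the scaffold eIF4G, which brings in the small ribosomal subunit, while repressors such as 4E-T (the product of eif4enif1) occupy the same surface and keep the mRNA from being translated. eIF4E1b is a member of the family found in oocytes and early embryos. In Xenopus oocytes it is known as part of a repressing complex with 4E-T and CPEB on maternal mRNAs, the transcripts an egg stores and the embryo lives on until it starts its own transcription. Classes of RNA differ in what such a bait can be expected to meet: 7SL RNA and most other small RNAs made by RNA polymerase III have no methylguanosine cap, mitochondrial transcripts have none either, and replication-dependent histone mRNAs are capped but usually end in a stem-loop and not in a poly(A) tail.

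Total counts lay between 13035977 and 13993294 in the eIF4E1b RIP and between 11798977 and 12987388 in its inputs, and 18480 to 19591 genes had counts in a library. A count of 0 allows up to 0.214 to 0.254 CPM (counts scaled to a common library total). This limit covers counting error only, because the reads carry no molecular identifiers and need not be independent. Counts were more concentrated in the RIP, where 511 to 698 genes held 50% of the counts against 1294 to 1343 genes in the inputs. All 13 maternal marker genes had at least 100 normalized counts in every input, and the 10 markers of later differentiated cells that could be matched stayed under 100 in all 6 libraries, with 3 of them at 0. The summed level of the later markers was 28.4 to 68.0 normalized counts in the RIP and 28.2 to 31.8 in the inputs. Replicates differed by more than sampling noise, with a chi-square per degree of freedom of 52.5 to 99.9 among the RIP libraries and 13.1 to 21.8 among the inputs.

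A large share of genes, 48.7% of those tested, differed between the RIP and its input. DESeq2 with the replicate number as a block tested 17131 genes at an adjusted p under 0.005. It called 4108 of them higher in the RIP (24.0% of genes tested) and 4241 lower (24.8%). The fold was at least 2 for 3668 (21.4%) and 3753 (21.9%). The median log2 fold change was 0.0026 over all genes, 2.01 among the genes called higher and -1.85 among those called lower. All 3 RIP libraries lay above all 3 inputs for 5552 genes (32.4%) and below them for 5635 (32.9%). The genes called higher held 61.9%, 69.0% and 69.0% of the counts in the 3 RIP libraries and 20.2% to 20.5% in the inputs, whereas the genes called lower held 10.5% to 14.4% in the RIP and 51.3% to 52.2% in the inputs. A fold change here is relative to the median gene. When libraries were scaled to their total counts instead, the median of all genes moved to -0.42 and the split became 3021 higher and 5535 lower, so that the genes called higher made up 35.3% of all calls in place of 49.2%. In whole-embryo lysates, a transcript's presence in fewer cells and its lower level per cell cannot be told apart.

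**Figure D1:**
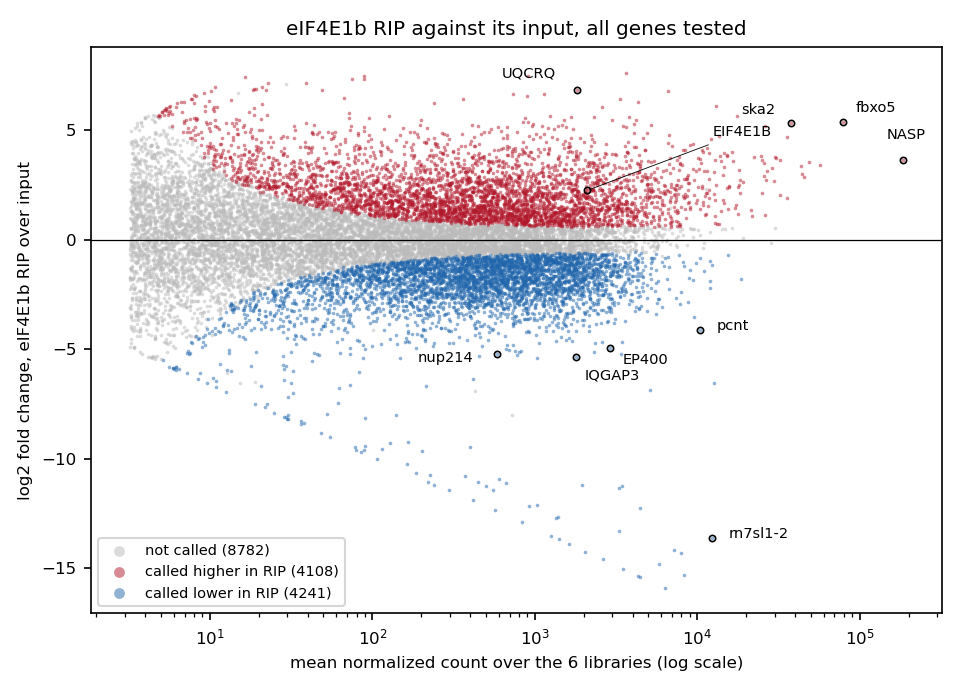
Each point is 1 of 17131 genes, placed by its mean normalized count over the 6 eIF4E1b libraries (log axis) and its log2 fold change, RIP over input. Genes called higher (4108) and lower (4241) are coloured, and 10 named genes are circled. The strand of points running down to the lower right holds mostly copies of small noncoding RNAs, of which rn7sl1-2 is one.

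The direction of a call went with the level of the gene in the inputs, by which the genes were put in 5 groups of near equal size. In the group with the least input RNA, up to 13.6 normalized counts, 16.5% were called higher and 0.263% lower, and the median log2 fold change was 1.176. In the middle group, at 74.2 to 287.6 normalized counts, 32.6% were higher and 22.9% lower, with a median of 0.12. In the top group, from 902.9 normalized counts, 19.8% were higher and 53.8% lower, and the median was -0.81. Depth moves with this order, since a decrease of a gene with few counts is harder to call. The input level is also the denominator of the fold change, so ranking by it can by itself give a falling order. The test's filter on low counts used the mean over RIP and input libraries together. A gene with almost no input RNA was thus tested only if its RIP counts were high enough, which favours higher calls in the lowest group. The parts of depth, of this ranking and of the filter in the order were not tested.

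The transcripts of both baits were themselves higher in the RIP. EIF4E1B, whose counts can include reads of the transgene, had normalized counts of 3184, 3546 and 3724 in the RIP and 849, 659.9 and 687 in the inputs (log2 fold change 2.26 ± 0.21, adjusted p = 5.27e-26). For eif4e1c the values were 5551, 4595 and 3052 in the RIP and 645, 613 and 597 in the inputs (log2 fold change 2.79 ± 0.22, adjusted p = 2.08e-36). The libraries did not overlap for either gene. In the eIF4E1c RIP both were also higher than in its inputs, with log2 fold changes of 2.53 for EIF4E1B and 1.80 for eif4e1c. The ratio of RIP to input was not called different between the proteins for either gene.

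The 10 genes with the strongest evidence of being higher in the RIP included fbxo5, ska2, jpt1b, UQCRQ and MRPL11. For fbxo5 (Emi1), which encodes an inhibitor of the anaphase-promoting complex, normalized counts were 121684, 156433 and 186405 in the RIP and 3308, 3849.9 and 4031 in the inputs (log2 fold change 5.36 ± 0.19, adjusted p = 3.14e-177). ska2, part of the complex that couples kinetochores to microtubules, had 63971, 81466 and 77354 in the RIP and 1801, 1828 and 1823 in the inputs (log2 fold change 5.35 ± 0.19, adjusted p = 4.77e-174). For both genes every RIP library lay far above every input. UQCRQ, a small subunit of respiratory complex III, had 2603, 3558 and 4692 in the RIP and 28.6, 29.2 and 36.1 in the inputs (log2 fold change 6.83 ± 0.25, adjusted p = 4.59e-159). MRPL11, a protein of the mitochondrial ribosome, had 8175, 12005 and 10107 in the RIP and 227, 277 and 298 in the inputs (log2 fold change 5.23 ± 0.20, adjusted p = 1.1e-150). FBXO48, an F-box gene, had 5475, 4574 and 5352 in the RIP and 90.2, 67.2 and 74.8 in the inputs (log2 fold change 6.06 ± 0.21, adjusted p = 1.42e-172). The others were jpt1b with a log2 fold change of 5.19 ± 0.19, and 4 genes known by clone or locus names, si:dkey-241l7.6 (6.80 ± 0.21), zgc:162025 (6.09 ± 0.20), si:ch211-145c1.1 (5.64 ± 0.20) and si:dkey-241l7.5 (5.61 ± 0.22). DESeq2 adjusted p-values of these 5 ranged from 1.34e-231 to 8.39e-141.

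Of the 10 genes with the strongest evidence of being lower, 7 encode named proteins. EP400, a chromatin remodelling ATPase, had normalized counts of 193, 192 and 164 in the RIP and 5656, 5699.7 and 5469 in the inputs (log2 fold change -4.94 ± 0.20, adjusted p = 4.2e-129). IQGAP3, a cytoskeletal scaffold, had 115, 63.5 and 82.8 in the RIP and 4049, 3125 and 3332 in the inputs (log2 fold change -5.35 ± 0.23, adjusted p = 8.17e-122). pcnt (pericentrin), which organises the centrosome, had 1149, 993 and 1222 in the RIP and 19716, 19070.0 and 20324 in the inputs (log2 fold change -4.14 ± 0.19, adjusted p = 5.81e-106). PCM1, a centriolar satellite protein, had 238, 109 and 208 in the RIP and 6232, 6183 and 7513 in the inputs (log2 fold change -5.22 ± 0.24, adjusted p = 2.57e-102). SMC3, a ring subunit of cohesin, had 175, 236 and 175 in the RIP and 4588, 5014 and 5421 in the inputs (log2 fold change -4.69 ± 0.21, adjusted p = 1.24e-105). For ATXN1L the log2 fold change was -5.13 ± 0.25 and for DOCK1, an activator of the GTPase Rac, -4.19 ± 0.21. ENSDARG00000117659 (-6.55 ± 0.24) and ENSDARG00000117717 (-6.84 ± 0.29) have no symbol in the table used, and ENSDARG00000113172 (-11.25 ± 0.56) is a copy of the signal recognition particle RNA.

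**Figure D2:**
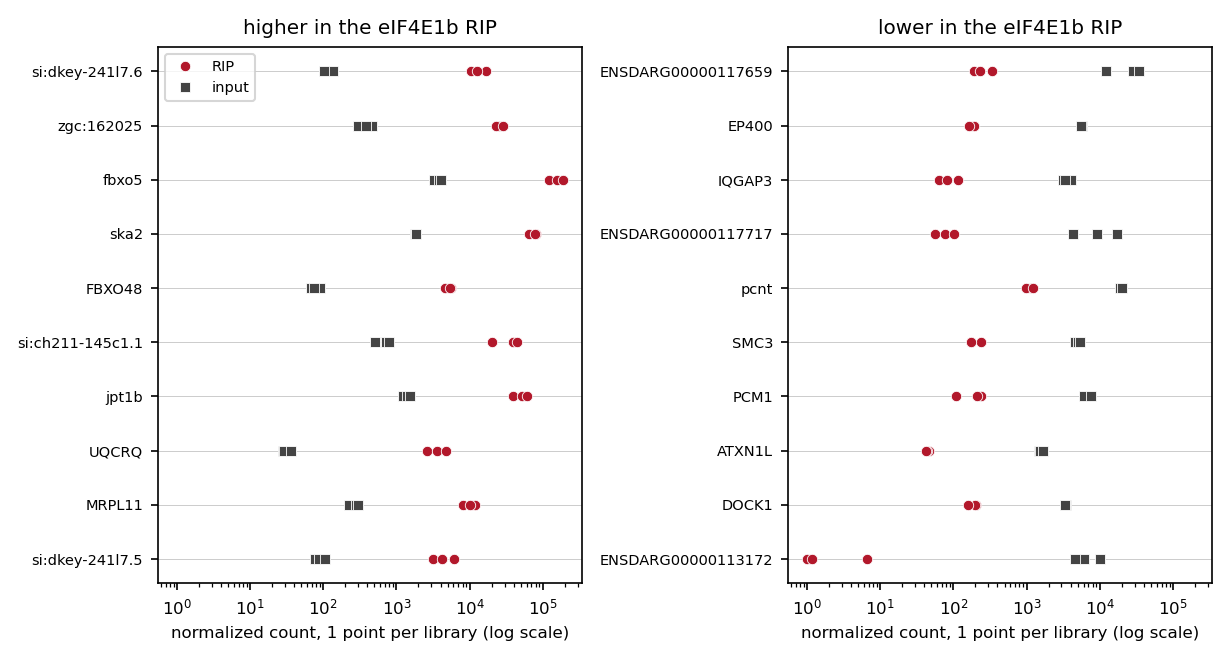
Normalized counts (log axis) in the 3 RIP libraries (circles) and 3 inputs (squares) for the 10 genes with the smallest adjusted p in each direction. For every gene the RIP points and the input points form separate groups, as the choice of these genes required.

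The 10 genes with the most counts held 6.71% to 8.52% of a RIP library and 2.08% to 2.27% of an input. NASP, which encodes a histone chaperone, had normalized counts of 160933, 318374 and 561212 in the RIP and 20077, 23914 and 30085 in the inputs (log2 fold change 3.65 ± 0.24, adjusted p = 9.25e-52), and its RIP values spread more than those of the other abundant genes. Several abundant genes work on ribosomal RNA or on small nucleolar RNPs: NOP58 had a log2 fold change of 3.43 ± 0.22, NOP56 of 3.80 ± 0.19 and DKC1, the pseudouridine synthase of box H/ACA RNPs, of 3.56 ± 0.18, while PINX1, a nucleolar protein, had 3.75 ± 0.19. SYNCRIP (hnRNP Q) had 82049, 78659 and 80668 in the RIP and 9833, 11079 and 11755 in the inputs (log2 fold change 2.89 ± 0.19, adjusted p = 8.3e-53). By contrast HSPA5, the ER chaperone BiP and one of the most abundant transcripts of the inputs, overlapped between the groups at 21879, 25618 and 34078 in the RIP and 26231, 33000.2 and 28854 in the inputs. HSP90B1, the ER form of HSP90, was lower in the RIP at 10350.2, 6840.3 and 8022 in the RIP and 25534, 31591 and 29526 in the inputs (log2 fold change -1.80 ± 0.22, adjusted p = 1.04e-15). NASP, NOP58, NOP56, DKC1 and PINX1 were chosen for their share of the RIP counts after the values were seen.

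The lists below are to be read beside the shares over all genes, 24.0% higher and 24.8% lower. Those shares are not matched to the input level of a list. In the top 2 of the 5 groups by input level, 37.9% and 53.8% of genes were lower and 26.2% and 19.8% higher. A list of abundant transcripts can thus lean lower without differing from other genes of its level, which was not tested. Small noncoding RNAs were the class that was nearly lost from the RIP. The parts of the bait and of the kit in this loss were not tested. They held 0.00379% of the eIF4E1b RIP counts on average against 1.83% of the input counts. Of the 100 that passed the test's filter on low counts, among 2911 listed, 73 were lower and 6 higher, with a median log2 fold change of -8.21, or -7.25 with members at 0 in every RIP library set to the limit of 3 counts. Most of them were genes for 7SL RNA, the RNA core of the signal recognition particle, which with the 7SK gene had 62 of 71 lower and none higher. The 7SK gene rn7sk, whose RNA holds an elongation factor of RNA polymerase II inactive, had normalized counts of 2.00, 4.46 and 1.183 in the RIP and 161, 179 and 152 in the inputs (log2 fold change -6.04 ± 0.67, adjusted p = 1.92e-18). Because copies of 7SL are nearly identical and reads cannot be placed among them with certainty, the 81 copies are best read as a sum: it was 13, 36 and 15 counts in the RIP and 179786, 283417 and 210026 counts in the inputs, or 1.52% to 2.26% of the input libraries. rn7sl1-2, the most abundant copy, had normalized counts of 0, 4.46 and 2.37 in the RIP and 21647, 33827 and 18094 in the inputs. rmrp, the RNA of RNase MRP, was at 0 in all 3 RIP libraries and at 345, 518 and 450.5 in the inputs, at least 401-fold lower against a limit of 3 counts over the group, although its call was lost without any 1 of the 3 pairs. Of 6 snoRNAs tested 5 were lower. Of 568 spliceosomal U RNAs listed 13 were tested, and 5 of these were higher and 2 lower, at low counts. A gene with little input RNA passed the filter only where its RIP counts were high enough. These calls therefore do not show that U RNAs behaved differently. Small noncoding RNAs as a whole had 6, 1, 1 and 0 members higher with all pairs and without replicate 1, 2 or 3. Without replicate 2 or 3 the number of small RNAs called lower was 47 or 44. In all, 42 genes had at most 3 counts in each RIP library and at least 100 normalized counts in every input, and 36 of these were small noncoding RNAs.

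The listed replication-type histone genes, picked by symbol, were mostly lower or unmoved in the RIP. Histone genes without a matching symbol are not in this list. Together the 19 listed genes held 0.0446% to 0.0481% of the RIP counts and 0.128% to 0.147% of the input counts. Of them 8 were lower and 2 higher, with a median log2 fold change of -0.64. h2bc1, an H2B gene, had normalized counts of 114, 119 and 166 in the RIP and 1336, 1661 and 1944 in the inputs (log2 fold change -3.63 ± 0.22, adjusted p = 1.91e-58). hist1h2a8 had 219, 332 and 306 in the RIP and 3863, 3929.5 and 3073 in the inputs (log2 fold change -3.67 ± 0.23, adjusted p = 5.79e-58). hist1h2a2 had 129, 232 and 177 in the RIP and 1692, 1730.0 and 859.6 in the inputs (log2 fold change -2.96 ± 0.28, adjusted p = 6.83e-26). The RIP libraries of these 3 genes lay below all their inputs. In the other direction hist2h2l had 137, 213 and 413 in the RIP and 9.82, 23.9 and 32.6 in the inputs (log2 fold change 3.52 ± 0.36, adjusted p = 2.08e-21), and hist1h2a4 was higher with all pairs (log2 fold change 1.40 ± 0.32, adjusted p = 4.05e-05) but not without replicate 2 or 3. Without replicate 1 or 2 the number lower was 5. Members of this family share long stretches of sequence, so the counts of single genes are uncertain. Their sum does not depend on how reads were split among the listed genes. It can still miss reads that were dropped or counted for copies outside the list, since the treatment of multiply mapped reads is not given.

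Variant histones, many of which are expressed outside S phase too and have mRNAs that can carry poly(A) tails, leaned the other way. Of 14 tested, 7 were higher and 2 lower, with a median log2 fold change of 0.80. H2AZ2, an H2A.Z gene, had normalized counts of 4643, 3484 and 2733 in the RIP and 939, 675 and 639 in the inputs (log2 fold change 2.26 ± 0.20, adjusted p = 2.17e-29). h2ax1 had 729, 1108 and 2371 in the RIP and 175, 279.5 and 474 in the inputs (log2 fold change 2.12 ± 0.22, adjusted p = 7.83e-22) and h3f3a, an H3.3 gene, had 1586, 2570.0 and 1583 in the RIP and 713, 591 and 516 in the inputs (log2 fold change 1.63 ± 0.24, adjusted p = 2.04e-11). h2ax2 was lower at 299, 271 and 528 in the RIP and 1267, 1485 and 1238 in the inputs (log2 fold change -1.92 ± 0.26, adjusted p = 9.48e-13), and H3-3B was lower too (-1.45 ± 0.42). Without any 1 pair only 1 of the 2 was called. As a share of counts the variant histones overlapped, at 0.132% to 0.217% of the RIP and 0.154% to 0.182% of the inputs.

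Mitochondrially encoded genes had no common direction, and single libraries decided their values. They held 0.0157%, 0.0972% and 0.0145% of the counts in the 3 RIP libraries and 0.134%, 0.0483% and 0.0285% in the 3 inputs, so that replicate 2 stood out in the RIP and replicate 1 in the inputs. Among 13 genes, 3 were higher (23.1%, near the 24.0% over all genes) and 1 lower, with a median log2 fold change of -0.97. MT-CO3, subunit 3 of cytochrome c oxidase, had normalized counts of 542, 4004 and 697 in the RIP and 121, 71.7 and 55.4 in the inputs (log2 fold change 3.85 ± 0.91, adjusted p = 5.82e-05), and MT-CO2 (3.80 ± 1.06) and MT-ND3 (2.80 ± 0.58) were also called higher. MT-ND4, a complex I subunit, had 107, 420.3 and 63.9 in the RIP and 3231, 1269 and 706 in the inputs (log2 fold change -3.34 ± 0.84, adjusted p = 0.00019). MT-CO1, subunit 1 of the same oxidase, had the most counts of the class and overlapped, at 574, 3745 and 506 in the RIP and 5809, 2106 and 1288 in the inputs (log2 fold change -1.30 ± 1.05). Without replicate 3 none of the 13 was called in either direction, and without replicate 2 there were 6 lower, MT-CO1 among them at -2.34.

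**Figure D3:**
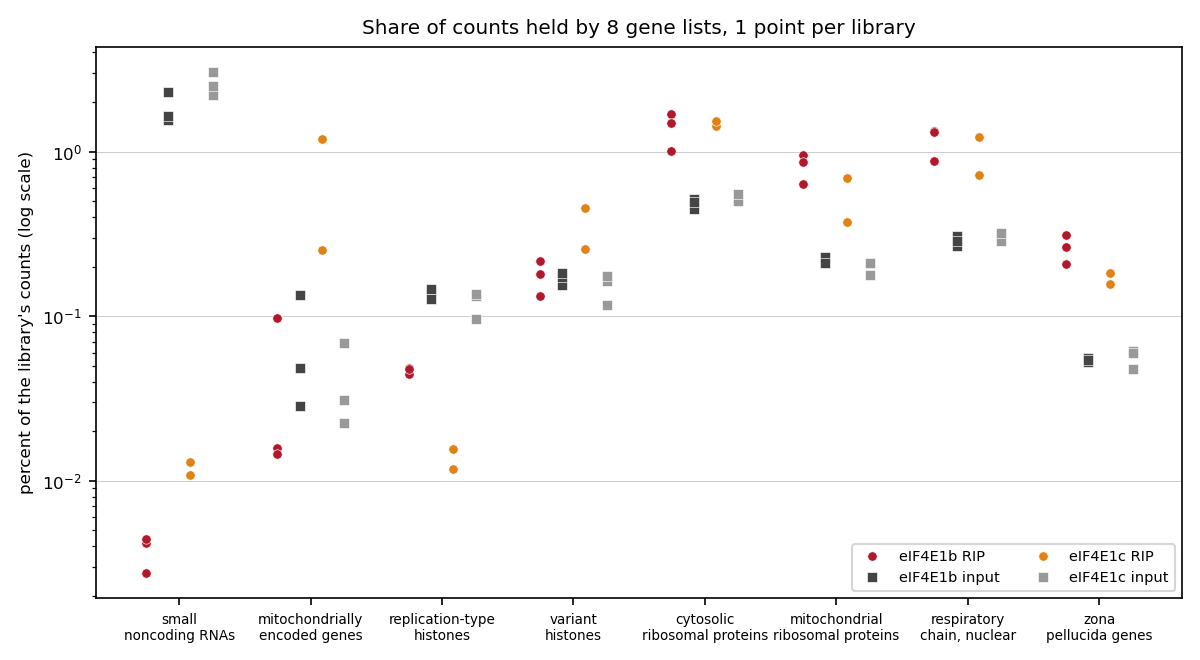
Percent of each library's counts (log axis) held by 8 gene lists, with 1 point per library: circles for the 3 eIF4E1b and 2 eIF4E1c RIP libraries and squares for the 3 inputs of each. Small noncoding RNAs fall from 1.83% of the eIF4E1b inputs to 0.00379% of the RIP on average, the ribosomal protein, respiratory chain and zona pellucida lists lie above their inputs in every RIP library, and the mitochondrially encoded genes overlap between the eIF4E1b RIP and its inputs and are highest in both eIF4E1c RIP libraries.

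Nuclear genes for mitochondrial proteins and for ribosomal proteins moved together and upward. Of 85 nuclear genes of the respiratory chain tested, 74 were higher and 1 lower, with a median log2 fold change of 2.78. By complex, 32 of 35 genes of complex I were higher, 2 of 4 of complex II, 9 of 10 of complex III, 13 of 16 of complex IV and 18 of 20 of the ATP synthase. ATP5F1C, the gamma subunit of the ATP synthase, had normalized counts of 9365, 16144 and 16377 in the RIP and 1290.5, 1633 and 1622 in the inputs (log2 fold change 3.17 ± 0.20, adjusted p = 1.02e-55). COX4I1, a nuclear subunit of complex IV, had 7069, 13928 and 17115 in the RIP and 504, 575.9 and 576.3 in the inputs (log2 fold change 4.44 ± 0.23, adjusted p = 4.36e-78). The single gene lower was UQCRC1, a core protein of complex III, at 365, 311 and 251 in the RIP and 564, 590.0 and 539 in the inputs (log2 fold change -0.88 ± 0.24, adjusted p = 0.00055), a call that was lost without replicate 2 or 3. The 75 genes of mitochondrial ribosomal proteins had 61 higher and 1 lower, with a median of 2.09. mrps28 had 3684, 8545 and 10031 in the RIP and 138, 146 and 139.9 in the inputs (log2 fold change 5.60 ± 0.26, adjusted p = 3.97e-97). MRPS33 had 4546, 10172 and 9839 in the RIP and 529, 534 and 516 in the inputs (log2 fold change 3.87 ± 0.25, adjusted p = 7.33e-53), while MRPL2, the 1 member lower, overlapped between groups (log2 fold change -0.85 ± 0.23, adjusted p = 0.000616) and lost its call without replicate 3.

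Of 86 cytosolic ribosomal protein genes tested, 69 were higher and 6 lower (3 lower without the replicate block), and the median log2 fold change was 2.05. Both subunits took part, with 39 of 47 large subunit genes and 28 of 37 small subunit genes higher. RPL21 had normalized counts of 10922, 15789 and 14958 in the RIP and 1011, 1133 and 1109 in the inputs (log2 fold change 3.66 ± 0.19, adjusted p = 3.57e-78). RPL22L1 had 2010.2, 3941 and 5076 in the RIP and 103, 165 and 149.6 in the inputs (log2 fold change 4.65 ± 0.23, adjusted p = 1.98e-90). RPL6 had 9318, 12745 and 14262 in the RIP and 1229.8, 1684 and 1469 in the inputs (log2 fold change 3.04 ± 0.19, adjusted p = 6.21e-54). RPL4 had 3233, 13628 and 14586 in the RIP and 1324, 2522 and 2572 in the inputs (log2 fold change 2.08 ± 0.25, adjusted p = 4.93e-16). For each of these the RIP libraries lay above all inputs, though the RPL4 value of replicate 1 stood well below the other RIP values. RPS2 went the other way at 413, 808 and 518 in the RIP and 2785, 2935 and 2505 in the inputs (log2 fold change -2.29 ± 0.23, adjusted p = 8.83e-23). The class as a whole held 0.446% to 0.518% of the input counts and 1.01% to 1.70% of the RIP counts.

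The genes of the translation apparatus were divided by complex. Among 48 initiation factor genes other than eIF4E tested, 20 were higher (41.7%) and 9 lower (18.8%), beside 24.0% and 24.8% over all genes. The eIF1 genes (4 of 5 higher) and eIF3 genes (9 of 16 higher, 3 lower) were mostly up, and the eIF4 genes, which encode eIF4A, eIF4B, eIF4G and eIF4H, were 2 higher and 5 lower of 12. eif5b, which joins the ribosomal subunits, had normalized counts of 40487, 35203 and 69964 in the RIP and 4676, 5440.5 and 5804 in the inputs (log2 fold change 3.13 ± 0.22, adjusted p = 6.73e-46). The eIF2 alpha gene EIF2S1 (ENSDARG00000005827) had 17301, 18244 and 19518 in the RIP and 4040.2, 4291 and 4370.1 in the inputs (log2 fold change 2.12 ± 0.18, adjusted p = 9.7e-30). EIF3J (ENSDARG00000053370), a loosely held eIF3 subunit, had the smallest adjusted p of those higher (log2 fold change 4.35 ± 0.23, adjusted p = 1.38e-78). EIF4G3 (ENSDARG00000077215), a scaffold to which the canonical eIF4E binds, had 247, 100.3 and 183 in the RIP and 2247, 2698 and 2675 in the inputs (log2 fold change -3.92 ± 0.28, adjusted p = 2.72e-44). Elongation factors were higher in 7 of 11 cases, among them EEF1G (log2 fold change 2.44 ± 0.18, adjusted p = 3.09e-39). Aminoacyl-tRNA synthetases showed no lean: 9 of 35 were higher and 11 lower, or 7 lower without replicate 2, and 5 higher with scaling to total counts.

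Within the eIF4E family and its binding proteins, 5 of 12 genes were higher and 2 lower (4 lower with scaling to total counts), with a median log2 fold change of 0.45. Besides the baits, the gene of the cap-binding protein EIF4E2 (4EHP) was higher, at normalized counts of 2031, 2216 and 3072 in the RIP and 353, 377 and 508 in the inputs (log2 fold change 2.56 ± 0.20, adjusted p = 2.57e-36). EIF4E, a canonical eIF4E gene, was higher as well, at 477, 402 and 520.5 in the RIP and 88.4, 111 and 63.4 in the inputs (log2 fold change 2.44 ± 0.30, adjusted p = 1.58e-15). The last was eif4ebp3 (ENSDARG00000054916), a 4E-binding protein gene with few counts (55.0, 45.7 and 24.8 in the RIP), whose call was lost without replicate 1 or 2. A second canonical eIF4E gene, eif4eb, had 582, 628 and 804 in the RIP and 566, 339 and 424 in the inputs. It was not called (log2 fold change 0.62 ± 0.25, adjusted p = 0.0267). The gene of the repressor 4E-T, eif4enif1, was lower at 1142, 543 and 884 in the RIP and 1869, 2445 and 3049 in the inputs (log2 fold change -1.56 ± 0.27, adjusted p = 2.18e-08). EIF4EBP2, another 4E-binding protein, had 585, 549.6 and 389 in the RIP and 960.0, 866 and 983 in the inputs (log2 fold change -0.90 ± 0.23, adjusted p = 0.000291) and was not called without replicate 2 or 3.

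The list of maternal mRNA storage and repression genes, which also holds the kinase gene MOS, was divided. Of 33 tested, 8 were higher and 9 lower (15 lower with scaling to total counts), shares near those over all genes. MOS, the kinase that holds the egg in meiosis, had normalized counts of 20033, 25072 and 32094 in the RIP and 1687, 1825 and 1786 in the inputs (log2 fold change 3.84 ± 0.20, adjusted p = 2.08e-79). ZAR1L, an RNA-binding protein of the oocyte, had 8604, 15691 and 18896 in the RIP and 999, 1300.4 and 1509 in the inputs (log2 fold change 3.45 ± 0.20, adjusted p = 8e-64). MSI2 (ENSDARG00000032614), a Musashi protein, had 6412, 5472 and 6040.0 in the RIP and 665, 548 and 598 in the inputs (log2 fold change 3.31 ± 0.19, adjusted p = 6.69e-66). The Pumilio family genes PUM3 (1.97 ± 0.21) and PUM2 (1.33 ± 0.26) were higher too. Among those lower were patl1, a P-body protein, at 994, 691 and 503 in the RIP and 2845, 2948 and 2918 in the inputs (log2 fold change -2.05 ± 0.23, adjusted p = 1.96e-17), and the Lsm14 genes lsm14aa (-1.51 ± 0.23) and LSM14A (-1.10 ± 0.22), whose protein is a partner of the DDX6 helicase in repressed mRNPs.

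Among 56 genes of deadenylation and mRNA decay, 19 were higher (33.9%) and 22 lower (39.3%), both above the shares over all genes, 24.0% and 24.8%. The split followed complexes. Of 14 genes of the CCR4-NOT list (cnot), whose complex shortens poly(A) tails, 9 were lower and 1 higher, and of 9 nonsense-mediated decay genes 5 were lower and 1 higher (2 lower without replicate 2, 3 lower without replicate 3 and 2 higher without replicate 1). The LSM ring had 6 of 7 genes higher, and the exosome 6 of 10 higher and 1 lower. LSM7 had normalized counts of 1358, 2235 and 2391 in the RIP and 105.4, 89.3 and 135 in the inputs (log2 fold change 4.16 ± 0.24, adjusted p = 5.2e-63). UPF3B had 11067, 19833 and 27486 in the RIP and 1529, 1352 and 1429 in the inputs (log2 fold change 3.67 ± 0.25, adjusted p = 2.25e-45). The 5′ to 3′ exonuclease gene XRN1 had 274, 233 and 159 in the RIP and 2493, 2488 and 2748 in the inputs (log2 fold change -3.56 ± 0.24, adjusted p = 2.17e-49), with every RIP library below every input.

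The germ plasm list, which holds genes linked to germ plasm and germ cells, had more members lower than higher. Of 21 tested, 10 were lower (47.6%) and 4 higher (19.0%), beside 24.8% and 24.0% over all genes. Most members had input levels like those of the top 2 groups by input level. In these groups 37.9% and 53.8% of genes were lower and 26.2% and 19.8% higher. The lean is therefore not shown to be particular to this list. The median log2 fold change was -0.61, and the number lower was 6 without replicate 2 or 3. Genes for tudor domain proteins, which build germ granules, made up most of the decrease, with 6 of 10 lower and none higher. TDRD6 had normalized counts of 422, 319.9 and 339.5 in the RIP and 2151, 2545 and 2958 in the inputs (log2 fold change -2.82 ± 0.23, adjusted p = 4.45e-34). TDRD9 had 379, 110.4 and 316 in the RIP and 1183, 1127 and 1181 in the inputs (log2 fold change -2.27 ± 0.30, adjusted p = 2.52e-13). DAZL, an RNA-binding protein of germ cells, was lower as well (-1.26 ± 0.26). The 4 genes higher were DND1, which protects germ cell mRNAs from microRNAs, at 1169, 1096 and 1137 in the RIP and 226, 179 and 205 in the inputs (log2 fold change 2.49 ± 0.22, adjusted p = 4.24e-28), and ca15b (2.27 ± 0.20), NANOS3 (1.95 ± 0.25) and DDX4, the Vasa helicase (1.77 ± 0.22). buc, which organises the Balbiani body, was abundant in all 6 libraries and did not pass the test, at 15458, 18518 and 16081 in the RIP and 10134, 12003 and 13533 in the inputs (log2 fold change 0.49 ± 0.19, adjusted p = 0.0179).

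None of the 8 tested genes for maternal activators of the zygotic genome was higher, and 5 were lower, or 3 without replicate 2. nanog had normalized counts of 3666, 3257 and 2135 in the RIP and 6544, 6214 and 5450.5 in the inputs (log2 fold change -1.04 ± 0.20, adjusted p = 7.09e-07). EP300 (ENSDARG00000061108), a histone acetyltransferase, had 898, 730.2 and 640.0 in the RIP and 3925, 3968 and 4233 in the inputs (log2 fold change -2.43 ± 0.21, adjusted p = 2.68e-30). The RIP libraries of both genes lay below the inputs. foxh1 was called lower (log2 fold change -0.74 ± 0.23, adjusted p = 0.00263) and lost its call without replicate 2 or 3. pou5f3 lay just outside the threshold (log2 fold change -0.59 ± 0.20, adjusted p = 0.00522) and passed it without replicate 1 and with scaling to total counts. sox19b had 1929, 3087 and 3131 in the RIP and 1815, 2076 and 1914 in the inputs (log2 fold change 0.46 ± 0.21) and was not called.

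Zona pellucida genes, which encode proteins of the egg coat, were higher in 15 of 22 cases and lower in 1, with a median log2 fold change of 1.97. The zp3 genes had 10 of 11 members higher and the zp2 genes 5 of 7. zp3e had normalized counts of 6368, 11359 and 10612 in the RIP and 258, 379.5 and 321 in the inputs (log2 fold change 4.86 ± 0.20, adjusted p = 1.72e-128). zp3f.1 had 4951, 8244 and 7611 in the RIP and 391, 471 and 415 in the inputs (log2 fold change 3.997 ± 0.21, adjusted p = 7.68e-82). zp3c had 5285, 9500.2 and 6229 in the RIP and 644, 619 and 618 in the inputs (log2 fold change 3.44 ± 0.22, adjusted p = 8.39e-52). The 1 member lower was zpax1 (log2 fold change -0.99 ± 0.29, adjusted p = 0.00146), a call lost without replicate 1 or 3. The class held 0.0525% to 0.0558% of the counts in the inputs, and every RIP library lay above that.

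Genes of DNA replication and the kinetochore were more often higher than lower, genes of DNA repair more often lower, and cell cycle genes divided. Of 53 DNA replication genes, 24 were higher (45.3%) and 12 lower (22.6%), beside 24.0% and 24.8% over all genes. GMNN (geminin), which blocks relicensing, had normalized counts of 48335, 45608 and 61752 in the RIP and 13285, 11283 and 13558 in the inputs (log2 fold change 2.02 ± 0.19, adjusted p = 3.23e-26). LIG1 (3.79 ± 0.20), the replicative DNA ligase, was higher, and RRM1 (-2.37 ± 0.20), a subunit of ribonucleotide reductase, was lower. Of 80 DNA repair genes, 14 were higher (9 with scaling to total counts) and 26 lower, or 17.5% and 32.5%. The cohesin subunit gene rad21a had 190.0, 235 and 155 in the RIP and 2832, 2707 and 3077 in the inputs (log2 fold change -3.91 ± 0.23, adjusted p = 3.99e-64). Of 65 cell cycle and mitotic kinase genes 19 were higher, such as CCNA1 (3.25 ± 0.22), an A-type cyclin, and 24 lower, such as CDK17 (-3.94 ± 0.26). These are 29.2% and 36.9%, both above the shares over all genes, and without replicate 2 the numbers were equal at 16. The kinetochore list had 13 of 28 higher (46.4%) and 6 lower (21.4%), or 2 and 3 lower without replicate 2 and 3. The shares lower of the replication and kinetochore lists were near that over all genes. cenpe, a kinetochore kinesin, had 1440.2, 1137 and 2141 in the RIP and 14071, 17731 and 21159 in the inputs (log2 fold change -3.52 ± 0.21, adjusted p = 7.52e-61).

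Kinesin and nuclear transport genes were more often lower than higher, and dynein chain genes more often higher. Of 37 kinesin genes, 22 were lower and none higher (1 by edgeR). kif15, a spindle motor, had normalized counts of 124, 127 and 209 in the RIP and 1654, 1833 and 2243 in the inputs (log2 fold change -3.67 ± 0.22, adjusted p = 1.52e-59). Of 17 dynein chain genes 9 were higher and 2 lower (1 without replicate 3). The whole list of kinesins, dyneins and tubulins had 26 of 68 lower (38.2%) and 13 higher (19.1%), beside 24.8% and 24.0% over all genes. The number higher was 7 without replicate 2 or 3 and 8 with scaling to total counts. DYNC2I1, a dynein chain gene, had the smallest adjusted p among those higher (4.88 ± 0.27). Of 69 nuclear pore and transport genes 34 were lower and 10 higher, or 6 higher without replicate 2 or with scaling to total counts. Nucleoporins had 15 of 26 lower and importins and exportins 14 of 26. nup214, a nucleoporin of the cytoplasmic filaments, had 34, 34.6 and 22.5 in the RIP and 957, 1292 and 1155 in the inputs (log2 fold change -5.22 ± 0.29, adjusted p = 1.25e-71). NXT2 (2.33 ± 0.28) and ranbp1 (1.48 ± 0.19) were higher.

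Chromatin remodellers and modifiers were lower in 91 of 214 cases (42.5%) and higher in 49 (22.9%), beside 24.8% and 24.0% over all genes. In the top 2 groups by input level the shares lower were 37.9% and 53.8%. The list was not set against genes of like input level. The median log2 fold change was -0.56. The number higher was 28 or 31 without replicate 2 or 3 and 28 with scaling to total counts. Histone methyltransferases of the kmt2, setd and ezh families had 14 of 23 lower and 5 higher, the chd remodellers 8 of 11 lower (5 without replicate 2) and the smarc genes 8 of 18 lower (13 with scaling to total counts), with none higher in the last 2 groups. SMARCE1 had normalized counts of 234.03, 294 and 218 in the RIP and 3499.9, 3608 and 4074 in the inputs (log2 fold change -3.91 ± 0.21, adjusted p = 4.69e-72). The ing genes, which encode small readers of histone methylation, were higher in 5 of 6 cases (3 without replicate 3 or with scaling to total counts). ing5b had 17591, 26368 and 34869 in the RIP and 939, 926 and 999 in the inputs (log2 fold change 4.73 ± 0.22, adjusted p = 6.67e-101). BAZ1B, the most abundant of the list, did not pass the test (log2 fold change 0.49 ± 0.19, adjusted p = 0.0199). Zinc finger genes had 73 of 300 lower (47 without replicate 2) and 43 higher (24 and 23 without replicate 2 and 3, and 25 with scaling to total counts), of which the 24.3% lower is close to the share over all genes and the 14.3% higher is below it, with ZNF507 (-3.02 ± 0.25) lower and znf576.2 (1.19 ± 0.19) higher.

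Among protein turnover genes, those of the proteasome and of the anaphase-promoting complex were more often higher than lower. Of 53 proteasome genes 29 were higher and 8 lower, with a median log2 fold change of 1.34. All calls in the core particle were upward, with 14 of 20 genes higher. PSMB1, a beta subunit, had normalized counts of 2316, 2772 and 3354 in the RIP and 268, 342 and 323 in the inputs (log2 fold change 3.17 ± 0.21, adjusted p = 7.28e-52). PSME4 (ENSDARG00000018742), a large activator, was lower (log2 fold change -3.22 ± 0.26, adjusted p = 1.16e-33). Of 9 proteasome activator and chaperone genes 2 were higher and 3 lower. The list of F-box, cullin, DCAF and APC genes had 39 of 102 higher (38.2%) and 29 lower (28.4%), beside 24.0% and 24.8% over all genes. Without replicate 2 the number lower was 18. The lean turned with scaling to total counts, at 28 higher and 33 lower. Its F-box genes had 24 of 66 higher and 19 lower, or 17 and 21 with that scaling, and of 9 cullin genes none was higher and 3 were lower. Of 14 subunits of the anaphase-promoting complex, the target of the fbxo5 product, 10 were higher and 2 lower. FBXW11, which recognises phosphorylated substrates, had 12664, 8954 and 10508 in the RIP and 3887, 4289.6 and 4435 in the inputs (log2 fold change 1.34 ± 0.20, adjusted p = 2.7e-10). DCAF8 (-3.10 ± 0.26) was lower.

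**Figure D4:**
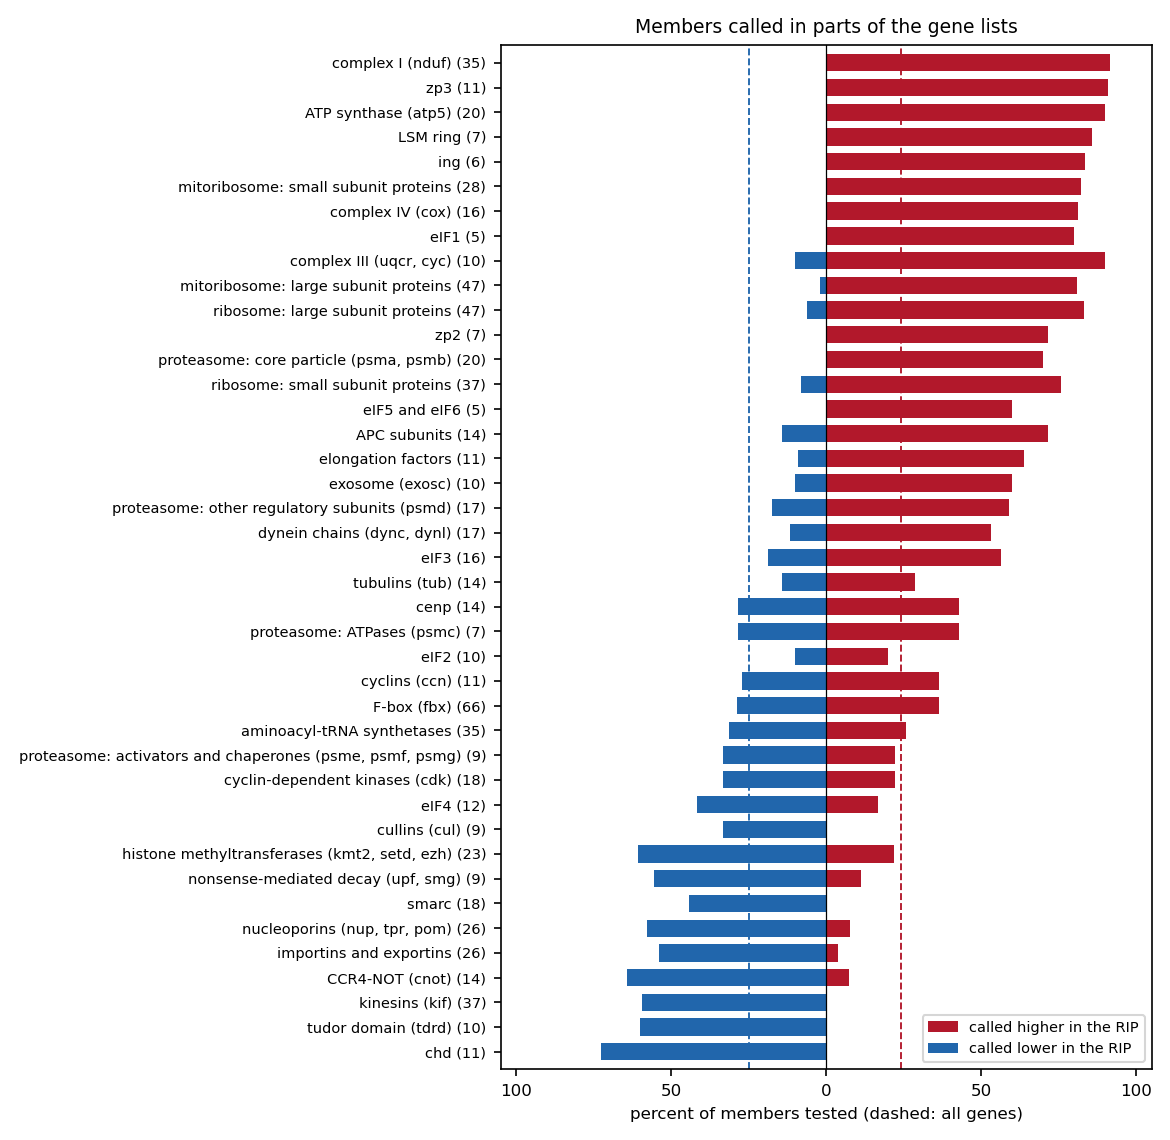
Percent of tested members called higher (right, red) and lower (left, blue) in the eIF4E1b RIP for parts of the gene lists, with the number tested in brackets. Dashed lines mark the percentages over all genes, 24.0 higher and 24.8 lower, which are not matched to the input level of a part. Complex I, zp3 and ATP synthase genes stand at the top, and chd, tudor domain and kinesin genes, with none higher, at the bottom.

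Among the remaining lists some were near the shares over all genes, 24.0% higher and 24.8% lower, and others departed from them. Of hnRNP genes 38.6% were lower, with a median log2 fold change of -0.73, and of ER translocation and coat vesicle genes 37.0%. Spliceosome and SR protein genes were above both shares, at 31.7% higher and 34.1% lower. The share higher was 10.8% for junction genes, 15.2% for solute carriers, 16.5% for signalling genes and 33.3% for glycolysis genes. Spliceosome and SR protein genes had 26 of 82 higher and 28 lower, with srrm2 (2.14 ± 0.19) and snrnp48 (3.41 ± 0.21) higher and PRPF8 (-3.11 ± 0.21), the largest protein of the spliceosome core, lower. Genes of hnRNP proteins had 9 of 44 higher (5 without replicate 2) and 17 lower, among them hnrnpr (-2.43 ± 0.23). Heat shock and chaperonin genes had 21 of 88 higher and 26 lower. ER translocation and coat vesicle genes had 23 of 81 higher, with ap1s3b at 3.41 ± 0.20, and 30 lower, with the COPII coat gene SEC24A at -3.95 ± 0.24. Solute carriers had 43 of 282 higher (24 and 27 without replicate 2 and 3) and 58 lower (36 without either). Glycolysis genes had 8 of 24 higher (4 and 3 without replicate 2 and 3) and 5 lower (3 without replicate 2). ENO3, an enolase, was higher at 2.74 ± 0.19 and GAPDH was not called at -0.12 ± 0.20. Junction genes had 8 of 74 higher (4 without replicate 2 or 3) and 21 lower, with the claudin cldng at 2.48 ± 0.21 and alpha-catenin ctnna1 at -3.60 ± 0.23. Genes of Wnt, Bmp, Nodal and Fgf signalling had 15 of 91 higher (7 without replicate 3) and 24 lower, with the oocyte ligand bmp15 at 3.00 ± 0.19 and the activin receptor ACVR2B (ENSDARG00000103108) at -3.97 ± 0.22. Kinases of the MAPK cascade and GTPases had 37 of 150 higher and 43 lower. With scaling to total counts the numbers higher were 5 for hnRNP, 26 for solute carrier, 4 for glycolysis and 4 for junction genes.

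The eIF4E1c libraries, made with the same pair of kits and sharing no library with those of eIF4E1b, allow the same contrast with another bait. The 2 eIF4E1c RIP libraries were unlike, with total counts of 6943631 and 10734469 and 15114 and 17520 genes with counts. The 10 genes with the most counts held 14.1% and 5.70% of them. The chi-square per degree of freedom between the 2 was 139, more than within any other group. DESeq2 called 2601 of 15131 genes (17.2%) higher and 2537 (16.8%) lower in the eIF4E1c RIP than in its inputs, and edgeR called 1334 and 1011. Without any 1 of its 3 inputs DESeq2 called 1610 to 1718 and 1472 to 1532, and with RIP and input of 1 number as a block, a fit chosen after the data were seen, 1334 and 1510. Over the 14912 genes tested for both proteins the log2 fold changes had a Pearson r of 0.774 and a Spearman rho of 0.755 across genes, and genes do not replicate one another. The sign was the same for 78.9%. Of genes called higher with eIF4E1b 51.2% were also called higher with eIF4E1c, and of those called higher with eIF4E1c 77.1% were also higher with eIF4E1b. For genes called lower the shares were 49.8% and 83.0%. Calls in opposite directions were few, with 10 genes higher with eIF4E1b and lower with eIF4E1c and 44 the other way. Medians of the lists were close for the respiratory chain (2.78 with eIF4E1b and 2.68 with eIF4E1c), cytosolic ribosomal proteins (2.05 and 2.00) and small noncoding RNAs (-8.21 and -9.05).

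**Figure D5:**
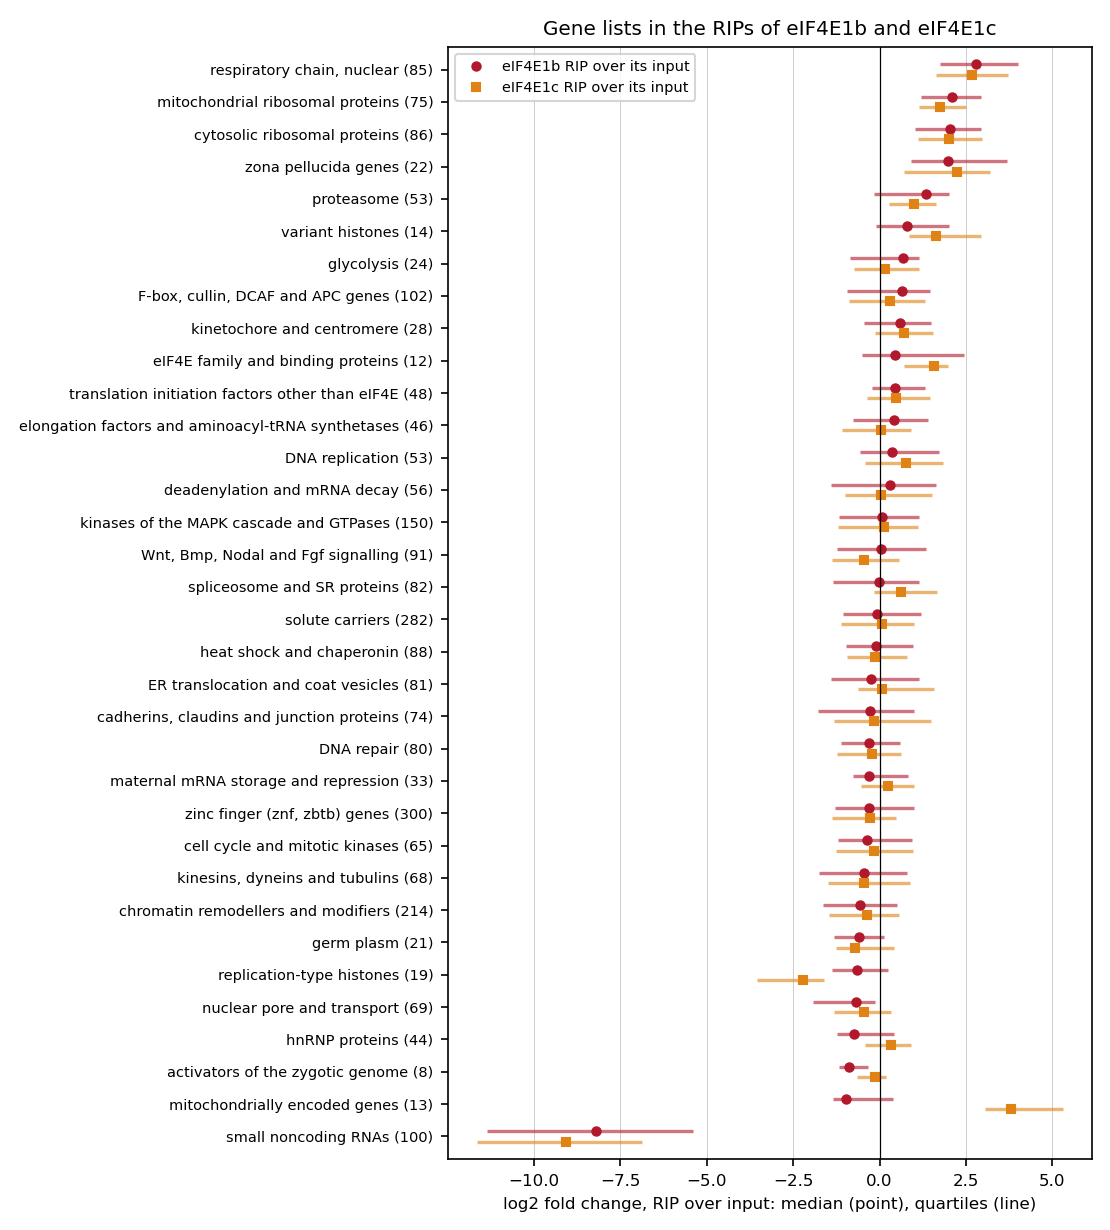
Median (point) and quartiles (line) of the log2 fold change, RIP over input, in each of the 34 gene lists for eIF4E1b (circles) and eIF4E1c (squares), with the number of members tested for eIF4E1b in brackets. Most lists lie close together for both proteins. The replication-type histones (-0.64 and -2.20) and the mitochondrially encoded genes (-0.97 and 3.81) lie furthest apart.

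The ratio of RIP to input was then compared between the proteins, for which the same pair of kits was used. Of 14194 genes tested, DESeq2 called 529 (3.73%) with a higher ratio for eIF4E1b and 744 (5.24%) with a lower ratio. These counts depended on the tool, the scaling and the libraries. edgeR called 68 and 186, and DESeq2 with scaling to total counts 228 and 841. Without any 1 of the 6 inputs DESeq2 called 292 to 350 higher and 443 to 508 lower, and without eIF4E1c RIP replicate 2 it called 1286 and 1514. With RIP and input of 1 number as a block, a fit chosen after the data were seen, 355 and 525 were called, of which 297 and 477 were among the calls without the block. For fbxo5 the ratio was higher, with log2 fold changes of 5.36 for eIF4E1b and 2.70 for eIF4E1c. DCAF5 had normalized counts of 3406, 2567 and 2888 in the RIP and 605, 579 and 567 in the inputs with eIF4E1b (log2 fold change 2.33 ± 0.20, adjusted p = 6.2e-30) and a log2 fold change of -0.71 with eIF4E1c. si:dkey-108k21.23 behaved likewise, at 2.79 and -0.57. On the lower side was oclna, an occludin gene of the tight junction, with 315, 308 and 252 in the RIP and 1215, 1083 and 1146 in the inputs (log2 fold change -1.98 ± 0.22, adjusted p = 2.04e-18) and a log2 fold change of 1.26 with eIF4E1c. Also lower were the replication licensing gene CDC6 (-1.93 and 0.48) and the deadenylase gene CNOT8 (-1.75 and 1.22). Among the lists, 9 of 19 replication-type histones had a higher ratio for eIF4E1b, among them hist1h2a11, hist1h2a10 and H3C15, and none a lower one. The median log2 fold change of this list was negative with both proteins, at -0.64 with eIF4E1b and -2.20 with eIF4E1c. Of 75 mitochondrial ribosomal protein genes 9 were higher and 1 lower. Of 82 spliceosome genes 3 were higher and 16 lower, and of 43 hnRNP genes 1 was higher and 8 lower. Of 80 ER translocation and coat vesicle genes 10 were lower and none higher, and of 69 nuclear pore genes 9 were lower and none higher. These list counts of the ratio were not computed with edgeR. The mitochondrially encoded genes, which held 1.20% and 0.251% of the counts in the 2 eIF4E1c RIP libraries, had 2 of 11 with a lower ratio for eIF4E1b.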

How the data were processed

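The authors deposited whole-number read counts per Ensembl gene, 1 table per library, with no normalization. The submitters' processing notes name GRCz11, Trim Galore 0.5.0, Bowtie2 2.3.4.1, featureCounts, Subread 1.6.2, DESeq2 1.18.1 and R 3.4.1. The annotation release, strand setting and treatment of multiply mapped reads are not given in the sources used here, so antisense and near-identical genes may share counts. Symbols were found for 29201 of 32520 identifiers.

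Counts were tested as deposited in R 4.3.3 with the Wald test of DESeq2 1.42.0, the tool and threshold of the study's methods, at a Benjamini-Hochberg adjusted p under 0.005, with independent filtering, median-of-ratios size factors and log2 fold changes without shrinkage (± SE). Normalized counts are counts divided by the size factor. The eIF4E1b comparison had the replicate number as a block: each input was part of the lysate its RIP was made from, per the methods, and deviations from the group means correlated at 0.374, 0.180 and 0.412 within pairs. The eIF4E1c comparison and the ratio (interaction over 11 libraries) had no block, except in an alternative added after the data were seen. P-values rest on spread shared across genes, since an unpaired exact test of 3 against 3 cannot go below 0.1. For 3 pairs the limit of an exact test is higher still. No adjusted p was given for 15389 identifiers, mostly with few or no counts, and they were left out.

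The alternatives were edgeR 4.0.16 (quasi-likelihood test, TMM scaling), TMM and total-count scaling in DESeq2, a minimum of 10 counts in at least 2 libraries, no independent filtering, an adjusted p under 0.05, a fold of at least 2, no block, and leaving out each pair or library. Genes were named by rule: the baits, the 10 smallest adjusted p in each direction with a mean of at least 100 normalized counts in the higher group and no overlap, the 3 most abundant and the most significant members of 34 lists, as far as space allowed, and the 3 leading genes of the ratio in each direction. Some genes that the rule gave are not reported here. Other genes were named after their values were seen. The comparison and the lists were chosen with earlier results of these data known. The computations were tested on simulated counts in which few genes changed, equally up and down. That check does not bear on the scaling when many genes differ, as they did here. Gene length, GC content, positions and sequences were not used here.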

Additional observations from a re-analysis of the deposited data

Results flagged for a closer look

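For 44 of 138 named genes with the ratio tested, the change from input to RIP differed between eIF4E1b and eIF4E1c at a DESeq2 adjusted p under 0.005 for the interaction, with a higher ratio for eIF4E1b in 26 and a lower one in 18. Over all 14194 genes tested, 3.73% had a higher ratio for eIF4E1b and 5.24% a lower one. The named genes were chosen in part for small adjusted p, abundance or the ratio itself, so their share cannot be compared with these. edgeR gave an adjusted p under 0.005 for 17 of the 44 and under 0.05 for all 44. With RIP and input of 1 number as a block, a fit chosen after the data were seen, 37 of the 44 had an adjusted p under 0.005, and CDK17, FBXW11, LSM14A, lsm14aa, H3-3B, DAZL and pcnt did not. The values below are differences of log2 fold changes, eIF4E1b minus eIF4E1c, and si:dkey-108k21.23, DCAF5, fbxo5, oclna, CDC6 and CNOT8 had been named for this difference.

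Among cell cycle, chromosome and centrosome genes the difference was positive for fbxo5 (2.70), ska2 (2.60), GMNN (1.75) and CDK17 (1.96), and negative for CDC6 (-2.38), SMC3 (-2.46), rad21a (-3.42), pcnt (-3.64) and PCM1 (-1.79). Replication-type histone genes were on the positive side, with hist1h2a10 (2.40), hist1h2a11 (2.28) and H3C15 (2.19). None of these was called higher in the eIF4E1b RIP. The log2 fold changes with eIF4E1b and eIF4E1c were 0.38 and -1.97 for hist1h2a10, -1.86 and -4.09 for hist1h2a11, and 0.12 and -2.05 for H3C15. Among the 14 variant histones tested 1 was higher, h2ax (2.74), and 3 lower, H3-3B (-2.43) among them, with a median of -1.04. Of nuclear genes for mitochondrial and ribosomal proteins the difference was positive for MRPS33 (2.296), MRPL11 (1.79), COX4I1 (1.80) and RPL21 (1.59), but over the whole lists 2 of 85 cytosolic ribosomal protein genes were higher and 2 lower, and 2 of 81 respiratory chain genes were higher. In translation and RNA metabolism the positive values were those of EIF4E2 (1.61), EIF2S1 (ENSDARG00000005827) (1.34), PUM3 (1.73), MSI2 (ENSDARG00000032614) (1.355) and SYNCRIP (1.365), and the negative ones those of EIF4G3 (ENSDARG00000077215) (-2.38), LSM14A (-1.40), lsm14aa (-1.41), XRN1 (-1.65), CNOT8 (-2.94), PRPF8 (-1.85) and DAZL (-2.45). Among chromatin, transcription and protein turnover genes the difference was positive for ing5b (2.04), znf576.2 (1.545), DCAF5 (3.07), FBXO48 (1.58) and FBXW11 (1.31), and negative for EP300 (ENSDARG00000061108) (-1.79), SMARCE1 (-1.94) and PSME4 (ENSDARG00000018742) (-1.97). The rest were si:dkey-108k21.23 (3.42), si:dkey-241l7.6 (2.13), jpt1b (2.32), zp3e (1.78), GAPDH (-1.61) and oclna (-3.20).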

How the results depend on the processing

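In the eIF4E1b comparison the number higher was 3021 with total-count scaling, 2845 to 3474 without 1 pair and 3933 to 5137 otherwise, and the number lower was 5535, 2965 to 3719 and 3979 to 5166, except that requiring a fold of at least 2 gave the 3668 and 3753 of the report. Dropping the replicate block gave 3933 higher and 3979 lower, of which 3863 and 3932 were among the calls with the block, edgeR shared 4061 and 4160, calls without 1 pair held 69.0% to 82.8% of those higher and 69.7% to 84.9% of those lower, calls with total-count scaling 73.5% of those higher, and no alternative called a gene in the opposite direction. Without the block MT-ND3 (2.96), MRPL2 (-0.79), foxh1 (-0.70) and zpax1 (-0.92) were no longer called. With total-count scaling hist1h2a10 (-0.040) and H3C15 (-0.30), neither called, changed sign. Of 139 named genes 121 kept their sign and side of the threshold throughout. Leaving out 1 pair gave 5 to 7 lower among replication-type histones, 0 to 3 higher among mitochondrially encoded genes, 44 to 51 lower among small noncoding RNAs, 6 to 11 lower among germ plasm genes and 3 to 6 lower among activators. The ratio had 68 higher and 186 lower by edgeR, 228 higher with total-count scaling (841 lower, a share of 21.3% higher among calls in place of 41.6%), 1356 and 1449 at an adjusted p under 0.05, and 292 to 1286 and 443 to 1514 without 1 library. The eIF4E1c comparison had 1334 and 1011 by edgeR and 1610 to 3285 and 1472 to 3389 without 1 library, and 1334 and 1510 with a replicate block, added after the data were seen. The cause of these differences was not tested. A check by gene length and GC content was not run.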
